A study of Homo sapiens with 3 samples.

Results

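Transcript levels shared by CAL 27 cells carrying nm23-H1 and CAL 27 cells carrying nm23-H2 were set against the same cells carrying the empty vector. CAL 27 is an established line from a poorly differentiated squamous cell carcinoma of the tongue. The comparison took in all 3 arrays of the series, 2 on the transfectant side and 1 on the vector side. According to the labels each line was stably transfected. The vector line carried pEGFPC1, an expression plasmid for the green fluorescent protein EGFP, and so made EGFP without an Nm23 partner. The nm23-H1 line carried pEGFP-nm23-H1 (pEGFPC1-nm23-H1 in the design text) and made EGFP fused to Nm23-H1, and the nm23-H2 line carried pEGFPC1-nm23-H2. All 3 lines had therefore been transfected with EGFP sequence. The design text speaks of clones for nm23-H1 and of a single clone for the vector, and whether the nm23-H2 RNA came from 1 clone or several is not given in the sources used here. Each construct was measured on 1 array, so there was no replicate against which a difference could be checked, and no test was possible.

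The vector array entered both differences. Any deviation of that array or of that clone moves the nm23-H1 and the nm23-H2 difference in the same direction, and cannot be told apart from a change that both Nm23 proteins share. For each gene the shared difference was taken as the smaller in size of the log2 differences from vector, where both had the same sign, and as 0 where the signs opposed. The arrays covered 11963 genes, of which 8000 were measured, that is, above a floor of 28.3 signal units on at least 1 array. The floor was the median of all scaled signals. A fold reckoned against the floor is a lower bound and is written "at least".

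Nm23-H1 and Nm23-H2, encoded by the neighbouring genes NME1 and NME2, are nucleoside diphosphate kinases, enzymes that pass a phosphate between nucleoside triphosphates and diphosphates. NME1 was named for its lower level in metastatic tumour cells and is classed as a metastasis suppressor, and Nm23-H2 is also known as a DNA-binding protein linked to MYC transcription. Squamous epithelial cells are recognised by their keratins and, as they mature, by the proteins of the cornified envelope, which are cross-linked beneath the cell surface.

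The cells carried the markers of their labelled type. All 15 keratinocyte markers matched to the arrays were measured and 14 were above the floor on every array. KRT5, a keratin of basal squamous cells, gave 8543 signal units with nm23-H1, 11699 with nm23-H2 and 9289 with vector. Of 10 fibroblast markers 2 were measured, of 12 leukocyte markers 7, of 8 endothelial markers 2 and of 9 melanocyte and neural markers 4. Summed over the measured members, the signals were 80.7 to 98.1 for fibroblast, 259 to 476 for leukocyte, 56.7 to 86.2 for endothelial and 254 to 372 for melanocyte and neural markers. Above the floor on every array were 1 fibroblast, 3 leukocyte, 0 endothelial and 1 of the melanocyte and neural markers. The leukocyte marker HCLS1 gave 196 units with nm23-H1, 61.5 with nm23-H2 and 37.9 with vector. CD3D, also of the leukocyte list, was above the floor with nm23-H1 and vector. TYR, of the melanocyte and neural list, was above it with both transfectants. Among the defining genes COL3A1 and DCN for fibroblasts, PTPRC for leukocytes and CDH5 for endothelium were below the floor on all 3 arrays.

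The nm23-H2 array stood apart in its control probe sets. The 18 control probe sets for the added bacterial RNAs had a median of 1.63 times the vector signal with nm23-H2 (1.32 to 1.99 times), against 0.940 times with nm23-H1 (0.653 to 1.09 times). The ratio of the 3′ to the 5′ probe set of ACTB, a measure of RNA and label integrity, was 1.41 with nm23-H1, 1.90 with nm23-H2 and 1.75 with vector, and that of GAPDH was 0.878, 1.04 and 0.881. After scaling, 51.6%, 47.4% and 50.9% of probe sets lay above the floor with nm23-H1, nm23-H2 and vector. The median difference over the 8000 genes was 0 (log2) with nm23-H1 and -0.06 with nm23-H2. The part of these array-level values in the results was not tested.

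Among the nucleoside diphosphate kinases, NME3 was the only one with a probe set of its own that lay on the same side of vector on both arrays, although 3 of the 4 measured lay above it as deposited, and NME1 lay on opposite sides. NME1 gave 2379 signal units with nm23-H1, 1132 with nm23-H2 and 1519 with vector. The probe set annotated to NME2 together with the NME1-NME2 read-through gave 2323, 4845 and 2272 units, so that each of these signals was highest on the array of the matching construct. Whether these probe sets detect the transfected copies is not given in the sources used here. NME3, which encodes a further family member, gave 170 units with nm23-H1, 209 with nm23-H2 and 71.2 with vector, 2.39-fold and 2.94-fold the vector level. NME4, the mitochondrial member, gave 215, 258 and 218 units, within 1.18-fold of vector on both arrays. NME6 gave 50, 37.2 and 39.3 units, while neither NME5 nor NME8 reached the floor on any array. NME3 had no further probe set with which it could be compared.

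Both transfectants were at least 2-fold above vector for 66 genes (0.825% of the 8000) and at least 2-fold below it for 34 genes (0.425%). At 1.5-fold the counts were 249 genes higher (3.11%) and 234 lower (2.92%). Whatever the size of the difference, 1867 genes (23.3%) were above vector on both arrays and 2705 (33.8%) below it on both. That split turned with the scaling: it was 3197 above (40.2%) and 1387 below (17.4%) with the signals as deposited, 2538 (31.8%) and 1923 (24.1%) with a common median, and 1940 (24.4%) and 2630 (33.1%) with quantile normalization. Over the 11421 measured probe sets with a single gene symbol, 86 (0.753%) passed 2-fold above vector on both arrays and 50 (0.438%) passed 2-fold below it. The split between higher and lower genes at 2-fold depended on how the arrays were scaled: with the signals as deposited it was 109 against 18, with a common median 86 against 22, and with quantile normalization 70 against 34. As deposited, the median of all genes lay at 0.08 for nm23-H1 and 0.17 for nm23-H2 (log2).

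The 66 higher genes had median signals of 52.4 with vector, 144 with nm23-H1 and 167 with nm23-H2. For 12 of them the vector array was at the floor, so that the fold is a bound. The transfectants lay within 2-fold of each other for 63 of the 66. The 34 lower genes had median signals of 89.6 with vector, 34.2 with nm23-H1 and 29.9 with nm23-H2, and for 10 of them both transfectants were at the floor. Of the 34, 31 lay within 2-fold of each other between the transfectants. The closest genes inside the threshold were NOL3, APMAP and SLC6A8, each with a shared difference of 1.01 (log2), and LSM1, PADI2 and ATXN10 on the lower side, at -1, -1.01 and -1.02. The closest outside were NPDC1 at 0.97, MAPK3 at 0.96 and ARL6IP4 at 0.95, and H2BC12 at -0.998, DNAJC15 at -0.96 and SOX9 at -0.95.

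The only measure of error was how far probe sets for a gene disagreed. Over 1569 genes with at least 2 probe sets above the floor on every array, 2 probe sets per gene were compared. The SD of their disagreement, divided by the square root of 2, was 0.20 (log2) for the shared difference. For the nm23-H1 and nm23-H2 differences it was 0.32 and 0.36. The shared difference is the smaller value or 0, so its lower SD does not show better precision. The measure covers neither cultures, clones nor hybridisations. Of the 66 higher genes, 24 had a further measured probe set. In 19 of these the further probe sets also lay above vector on both arrays by their median, and in 4 they were also 2-fold higher. Of the 34 lower genes 15 had a further probe set, but only 8 had one that was measured. Of these 8, 7 were on the same side and 1 was also 2-fold lower. In the rest of the 15 every further probe set stayed at the floor on all 3 arrays and showed no decrease.

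**Figure D1:**
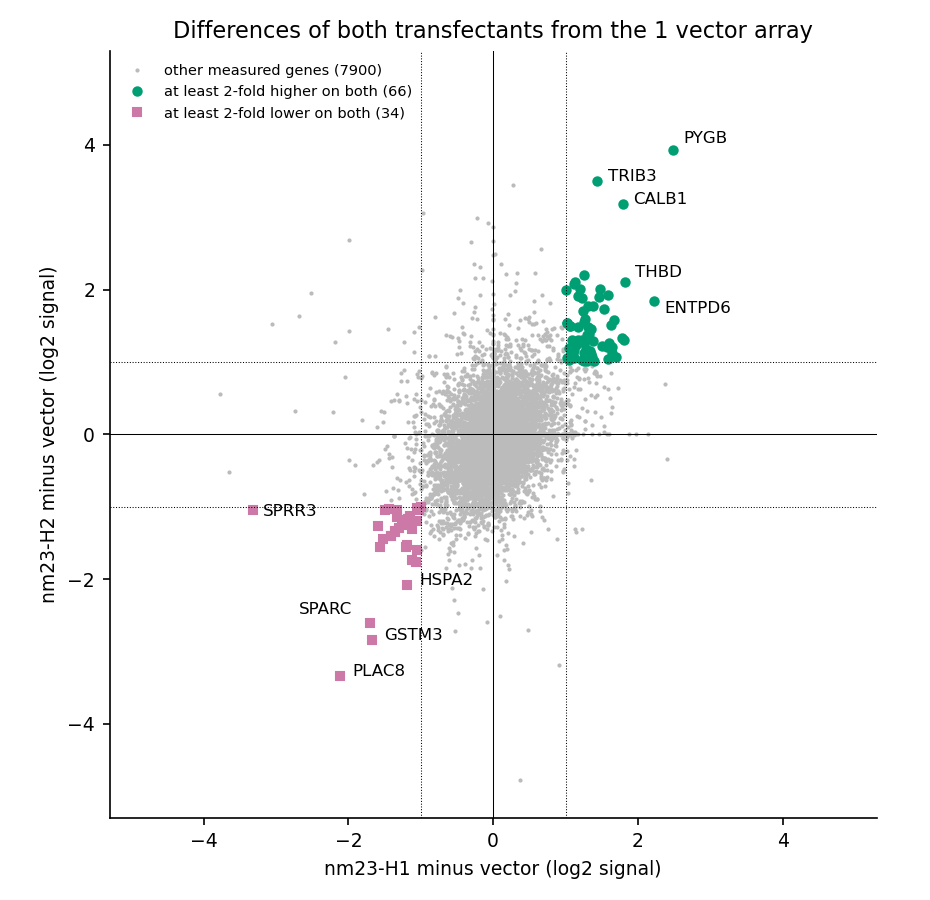
Each point is 1 of the 8000 measured genes, with the log2 difference of nm23-H1 from vector on the horizontal axis and that of nm23-H2 from vector on the vertical axis. Coloured points are the 66 genes past 2-fold above vector and the 34 past 2-fold below it on both arrays. Both axes share the vector array, so points are drawn towards the diagonal by any deviation of that array.

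The largest shared increases were in PYGB and ENTPD6, genes that lie close to each other on chromosome 20. PYGB, the brain form of glycogen phosphorylase, which releases glucose units from glycogen, gave 159 signal units with nm23-H1, 433 with nm23-H2 and 9.19 with vector, a bound of at least 5.61-fold with nm23-H1 and at least 15.3-fold with nm23-H2. ENTPD6, an enzyme that removes phosphates from nucleoside diphosphates and triphosphates outside the cytosol, gave 175, 134 and 37.4 units, 4.67-fold and 3.59-fold the vector level. In PYGB the nm23-H2 array was the higher of the transfectants, and in ENTPD6 the nm23-H1 array.

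THBD, thrombomodulin, the surface receptor through which thrombin activates protein C, gave 217 units with nm23-H1, 265 with nm23-H2 and 61.4 with vector (3.54-fold and 4.32-fold). Its further probe set had a shared difference of 1.53 (log2), which is also past 2-fold. CALB1, the calcium-binding protein calbindin, gave 206, 539 and 59.3 units (3.47-fold and 9.09-fold), and its further probe set had a smaller shared difference of 0.93. LTBP2, a matrix protein of the latent TGF-beta binding protein family, gave 181, 227 and 59.9 units (3.02-fold and 3.80-fold) and had no further probe set.

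GCLM, the modifier subunit of the enzyme that begins glutathione synthesis, gave 151 units with nm23-H1, 174 with nm23-H2 and 52.1 with vector (2.90-fold and 3.34-fold). ALDH2, the mitochondrial aldehyde dehydrogenase, gave 255, 346 and 92.4 units (2.76-fold and 3.74-fold). Both genes serve the removal of reactive compounds, and in both the transfectants lay closer to each other than to vector. TRIB3, a pseudokinase induced by stress, gave 724, 3026 and 267 units (2.71-fold and 11.3-fold), so that the nm23-H2 array was high and the nm23-H1 array between it and vector. STOML2, a stomatin-like protein of the mitochondrial inner membrane, gave 706, 734 and 282 units (2.50-fold and 2.60-fold).

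SEC23B, a coat protein of vesicles leaving the endoplasmic reticulum, gave 265 units with nm23-H1, 194 with nm23-H2 and 77.3 with vector (3.43-fold and 2.51-fold), and its further probe sets had a median shared difference of 0.84. SNX5, a sorting nexin of endosomes, gave 90.1, 84.7 and 7.97 units, at least 3.18-fold with nm23-H1 and at least 2.99-fold with nm23-H2. QSOX1, an oxidase that forms disulfide bonds, gave 78.9, 114 and 22.4 units, at least 2.78-fold with nm23-H1 and at least 4.01-fold with nm23-H2. ADISSP gave 261, 240 and 84.6 units (3.09-fold and 2.84-fold), with 0.69 by its further probe set. PWP2, a ribosome biogenesis factor, gave 73.4, 96.4 and 15.2 units (at least 2.59-fold and 3.40-fold), and VILL, a villin-like protein, was 2.56-fold and 2.73-fold higher (95.3, 101 and 37.2 units). When the floor was raised to the 70th percentile, 66.2 units, the shared differences of SNX5, QSOX1, PWP2 and VILL were under 2-fold.

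The largest shared decrease was in PLAC8, a cysteine-rich protein of epithelial and immune cells, which gave 81.2 units with nm23-H1, 34.7 with nm23-H2 and 351 with vector (4.32-fold and 10.1-fold lower). GSTM3, a glutathione transferase, gave 263, 117 and 839 units (3.19-fold and 7.20-fold lower). HSPA2, a heat shock protein of the HSP70 family, gave 298, 161 and 679 units (2.28-fold and 4.22-fold lower). In all 3 genes the vector array was high, the nm23-H1 array intermediate and the nm23-H2 array lowest, and the shared difference stayed past 2-fold under every alternative that measured it.

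SPARC, a secreted matricellular protein, gave 53.2 units with nm23-H1, 28.5 with nm23-H2 and 174 with vector (3.26-fold and 6.08-fold lower), while a second probe set never exceeded the floor. VIM, the intermediate filament vimentin of mesenchymal cells, gave 8.72, 24.7 and 72.4 units, at least 2.55-fold lower with both. The mesenchymal and matricellular list to which SPARC and VIM belong did not lie on 1 side. Of its 17 measured members 6 (35.3%) were above vector on both arrays and 7 (41.2%) below, beside 23.3% and 33.8% of all genes. Its median difference was 0.07 (log2) with nm23-H1 and 0 with nm23-H2. For SPARC the nm23-H2 array, and for VIM both transfectant arrays, were below the floor or within 1 unit of it. CPVL, a serine carboxypeptidase, gave 5.23, 4.58 and 83.6 units, at least 2.95-fold lower with both. BDKRB2, the bradykinin B2 receptor, gave 40.9, 51.4 and 124 units (3.03-fold and 2.41-fold lower), and its shared difference was under 2-fold with the signals as deposited.

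The rest of the 15 largest decreases lay near the floor. DNAJC7, a co-chaperone, gave 11.9 units with nm23-H1, 29.8 with nm23-H2 and 81.2 with vector. POGZ, a chromatin protein, gave 17.6, 11.9 and 75.4 units, and APOBEC3B, a cytidine deaminase, gave 19.0, 11.2 and 75.4 units, both at least 2.66-fold lower with both transfectants. LHX6 (72.7 units with vector), CASKIN2 (69.7) and PIK3C2B (67.6) were at or within 1 unit of the floor with both transfectants. SC5D, an enzyme of cholesterol synthesis, gave 41.5, 32.5 and 96.0 units (2.31-fold and 2.95-fold lower), and SRSF11, a splicing factor, gave 35.9, 28.1 and 81.7 units (2.28-fold and at least 2.88-fold lower). The other probe sets of DNAJC7, POGZ, CASKIN2, SC5D and SRSF11 stayed at the floor throughout. When the floor was raised to the 70th percentile the shared differences of CPVL, VIM, BDKRB2 and the other 8 genes named here were under 2-fold.

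**Figure D2:**
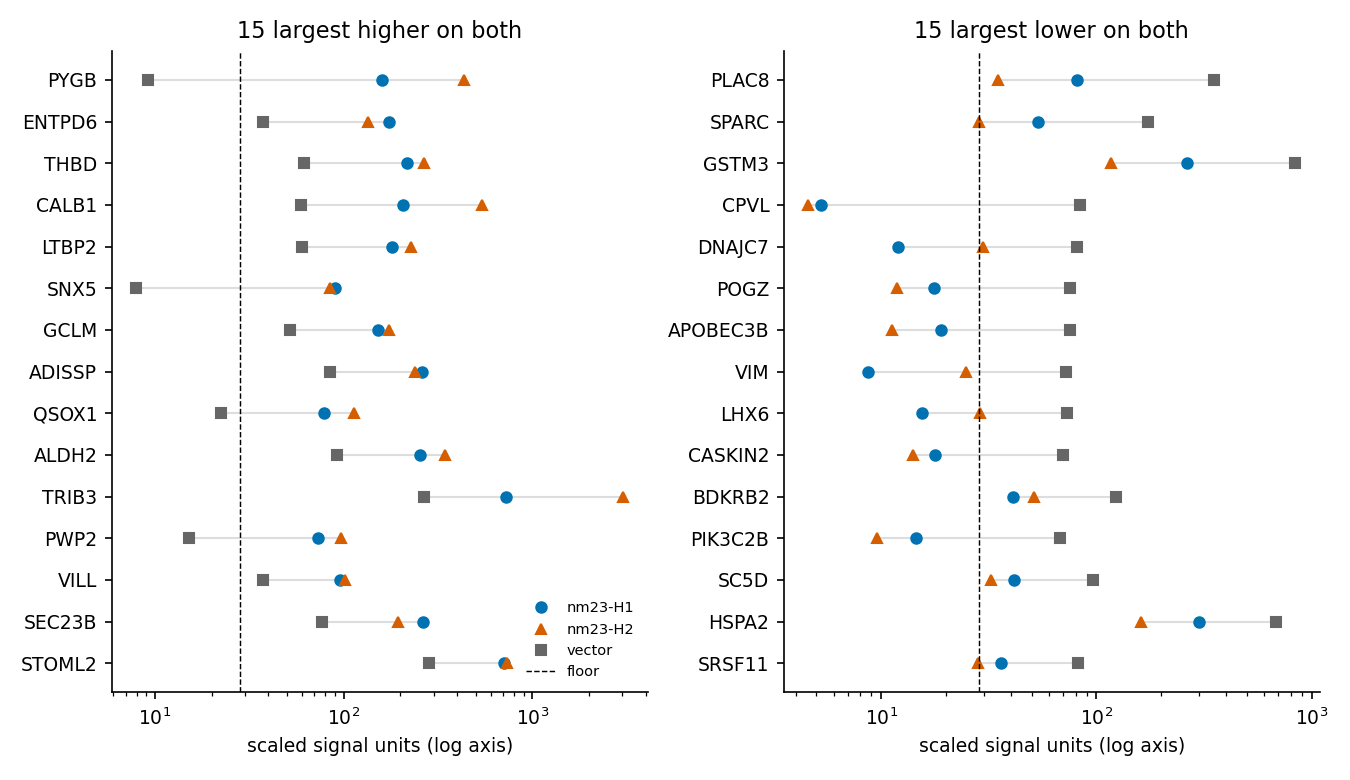
Scaled signal on a log axis for the 15 largest shared increases and the 15 largest shared decreases, with 1 point per array (nm23-H1, nm23-H2 and vector) and the floor of 28.3 signal units as a dashed line. No error bar is drawn because each group has 1 array. For PYGB, SNX5, QSOX1 and PWP2 the vector point lies left of the floor.

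Promoters are shown as examples for 3 of the largest shared differences, the increases of GCLM and ENTPD6 and the decrease of PLAC8. They are from RefSeq on assembly GRCh38.p14 and hold the 250 bases before the annotated start, 5′ to 3′ on the gene's own strand, with capitals for a match to any of the motifs searched on either strand. GCLM is at chr1:93909431-93909680 on the minus strand, ENTPD6 at chr20:25195462-25195711 on the plus strand and PLAC8 at chr4:83114730-83114979 on the minus strand.
GCLM: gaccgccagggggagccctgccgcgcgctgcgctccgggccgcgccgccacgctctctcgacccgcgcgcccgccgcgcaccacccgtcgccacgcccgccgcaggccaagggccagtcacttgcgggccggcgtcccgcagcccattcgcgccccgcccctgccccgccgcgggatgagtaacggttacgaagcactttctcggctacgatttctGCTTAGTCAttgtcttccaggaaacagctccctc
ENTPD6: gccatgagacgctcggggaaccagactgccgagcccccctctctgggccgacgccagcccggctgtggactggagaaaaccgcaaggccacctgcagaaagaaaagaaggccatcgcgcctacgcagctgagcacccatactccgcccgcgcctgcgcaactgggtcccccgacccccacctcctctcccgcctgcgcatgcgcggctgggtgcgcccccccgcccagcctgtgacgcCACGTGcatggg
PLAC8: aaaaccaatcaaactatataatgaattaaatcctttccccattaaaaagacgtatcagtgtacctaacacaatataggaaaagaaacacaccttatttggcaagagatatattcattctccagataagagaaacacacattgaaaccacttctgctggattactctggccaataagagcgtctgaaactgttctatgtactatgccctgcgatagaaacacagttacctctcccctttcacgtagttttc
The capitals in GCLM are a match to the antioxidant response letters TGACNNNGC on the opposite strand, those in ENTPD6 are the E-box CACGTG, and PLAC8 holds no match in this window. These examples do not stand for the rest. Among the other large increases PYGB, LTBP2, ADISSP, TRIB3, PWP2, SEC23B and STOML2 held no match, while SNX5 and QSOX1 held 1 each and VILL held 2. Among the large decreases CASKIN2, SC5D and SRSF11 held 1 each. SPARC, GSTM3, CPVL, DNAJC7, POGZ, VIM, LHX6, BDKRB2, PIK3C2B and HSPA2 held none.

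Promoters were found for 55 of the 66 higher genes, 29 of the 34 lower genes and 6593 of the 8000. The antioxidant response letters TGACNNNGC occurred in 14.5% of the higher, 6.90% of the lower and 12.5% of all promoters. The E-box CACGTG occurred in 12.7%, 6.90% and 8.95%. The AP-1 letters TGANTCA occurred in 1.82%, 6.90% and 4.23%, the cyclic AMP response letters TGACGTCA in 3.64%, 0% and 3.11%, the C/EBP-ATF letters TGATGNAA in 1.82%, 0% and 1.58%, and TATAAA in 0%, 10.3% and 6.31%. The shares of the higher and lower genes rest on 8 promoters or fewer for every motif, and the matches are a description of the letters only.

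Genes past 2-fold were unevenly spread along the genome. Chromosome 20 held 20 of the 66 higher genes, 8.40% of its 238 measured genes beside 0.825% of all genes, and none of the 34 lower ones. In order along the chromosome (assembly GRCh38.p14) they were TRIB3, FKBP1A, NSFL1C, IDH3B, ADISSP, CENPB, CDC25B, PRNP, CDS2, FERMT1, JAG1, RRBP1, SNX5, ZNF133, SEC23B, THBD, APMAP, ENTPD6, PYGB and NDRG3. They ran from chr20:380760 to chr20:36746090, and 19 of them lay below 30 Mb. Chromosome 9 held 9 higher genes, 2.82% of 319, namely FOCAD, SMU1, BAG1, UBAP1, FANCG, STOML2, CREB3, GRHPR and DNM1. Of the others, chromosomes 6, 7, 13, 15 and 18 held none of the higher genes.

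The shift on chromosome 20 took in neighbouring genes of unrelated function. From the start of the chromosome to 10 Mb, the median difference over 41 genes was 1.04 (log2) with nm23-H1 and 0.64 with nm23-H2, and 10 of the 41 were at least 2-fold higher on both. From 10 to 20 Mb it was 1.20 and 0.76 over 13 genes, with 5 past 2-fold. From 20 to 30 Mb it was 0.42 and -0.01 over 18 genes, with 4 past 2-fold. Beyond, the bins from 30 to 70 Mb had medians of -0.09 to 0.09 with nm23-H1 and -0.15 to -0.11 with nm23-H2, with NDRG3 the only gene past 2-fold. In 12 of the 20 higher genes the larger difference was that of nm23-H1.

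Several of these genes have roles far apart from one another. FKBP1A, the binding protein of the drug FK506, gave 1033 units with nm23-H1, 669 with nm23-H2 and 318 with vector. IDH3B, a subunit of mitochondrial isocitrate dehydrogenase, gave 867, 640 and 277 units. CDC25B, a phosphatase that activates mitotic cyclin-dependent kinases, gave 844, 808 and 388 units. JAG1, a ligand of Notch receptors, gave 177, 239 and 84.7 units, and PRNP, the prion protein, gave 327, 468 and 161 units. In each of these genes both transfectants were above vector, with nm23-H1 the highest for FKBP1A, IDH3B and CDC25B and nm23-H2 the highest for JAG1 and PRNP.

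A window of 50 neighbouring genes on chromosome 9, chr9:21967752-38069227 from CDKN2A to SHB, had a median shared difference of 0.55 (0.68 with nm23-H1 and 0.61 with nm23-H2). Of its genes 36 were above vector on both arrays and 2 below. Among the 50, 23 reached 1.5-fold and 7 reached 2-fold higher on both, beside 3.11% and 0.825% of all genes. The windows described here and below were picked from 6868 overlapping windows by their median shared difference. A high share of shifted genes within them therefore follows in part from that choice. Between 30 and 40 Mb, the medians over 47 genes were 0.66 and 0.60. BAG1, a co-chaperone that binds HSP70 and opposes cell death, gave 200 units with nm23-H1, 227 with nm23-H2 and 80.9 with vector, with a shared difference of 0.60 by its further probe set. FANCG, a protein of the Fanconi anaemia DNA repair complex, gave 402, 277 and 134 units, and GRHPR, glyoxylate reductase, gave 468, 371 and 155 units. For GRHPR the further probe sets had a median shared difference of 1.42. The window of chromosome 20 with the highest median, chr20:472498-18561415 from CSNK2A1 to SEC23B, reached 0.63 (1.09 and 0.67), with 14 genes past 2-fold. The next highest window apart from these, chr1:42658423-51789219 from PPIH to OSBPL9, reached only 0.07 and held no gene past 2-fold. These 3 windows, picked by the same values, together held 21 of the 66 higher genes in 150 genes.

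Chromosome 14 lay on the lower side. Over its 270 genes the median difference was -0.28 with nm23-H1 and -0.31 with nm23-H2, with 27 genes above vector on both arrays and 150 below. Of the 270 genes 29 were 1.5-fold lower or more on both, beside 2.92% of all genes. Of these, 5 passed 2-fold (1.85% of the chromosome, beside 0.425% of all genes), namely HSPA2, BDKRB2, SLC7A8, SLIRP and RPL36AL. SLIRP, an RNA-binding protein of mitochondria, gave 445 units with nm23-H1, 506 with nm23-H2 and 1118 with vector, and SLC7A8, an amino acid transporter, gave 138, 140 and 316 units. The lowest window, chr14:49893082-67735355 from ARF6 to ATP6V1D, had a median shared difference of -0.23, with 37 of 50 genes below vector on both arrays and 4 above. PPP2R5E, a regulatory subunit of protein phosphatase 2A, was 1.91-fold and 2.05-fold lower there, and GCH1, the first enzyme of tetrahydrobiopterin synthesis, at least 1.86-fold lower with both. A further window of the same chromosome, chr14:92936914-104759654 from ITPK1 to SIVA1, had a median of -0.16, and MOAP1, a modulator of apoptosis, was 1.81-fold and at least 2.54-fold lower. The third lowest, chr4:17810979-65670489 from NCAPG to EPHA5, had a median of -0.12. LTBP2, among the largest increases, also lies on chromosome 14.

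DNA copy number was not measured in the files used here, and its part in these regional shifts was not tested. Without the genes of the 6 windows, 45 of the higher and 32 of the lower genes were left. The 45 still included TRIB3, THBD, APMAP, ENTPD6, PYGB and NDRG3 of chromosome 20, and FOCAD and DNM1 of chromosome 9. These genes lie outside the windows, so the 45 are not free of genes from the raised part of chromosome 20.

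**Figure D3:**
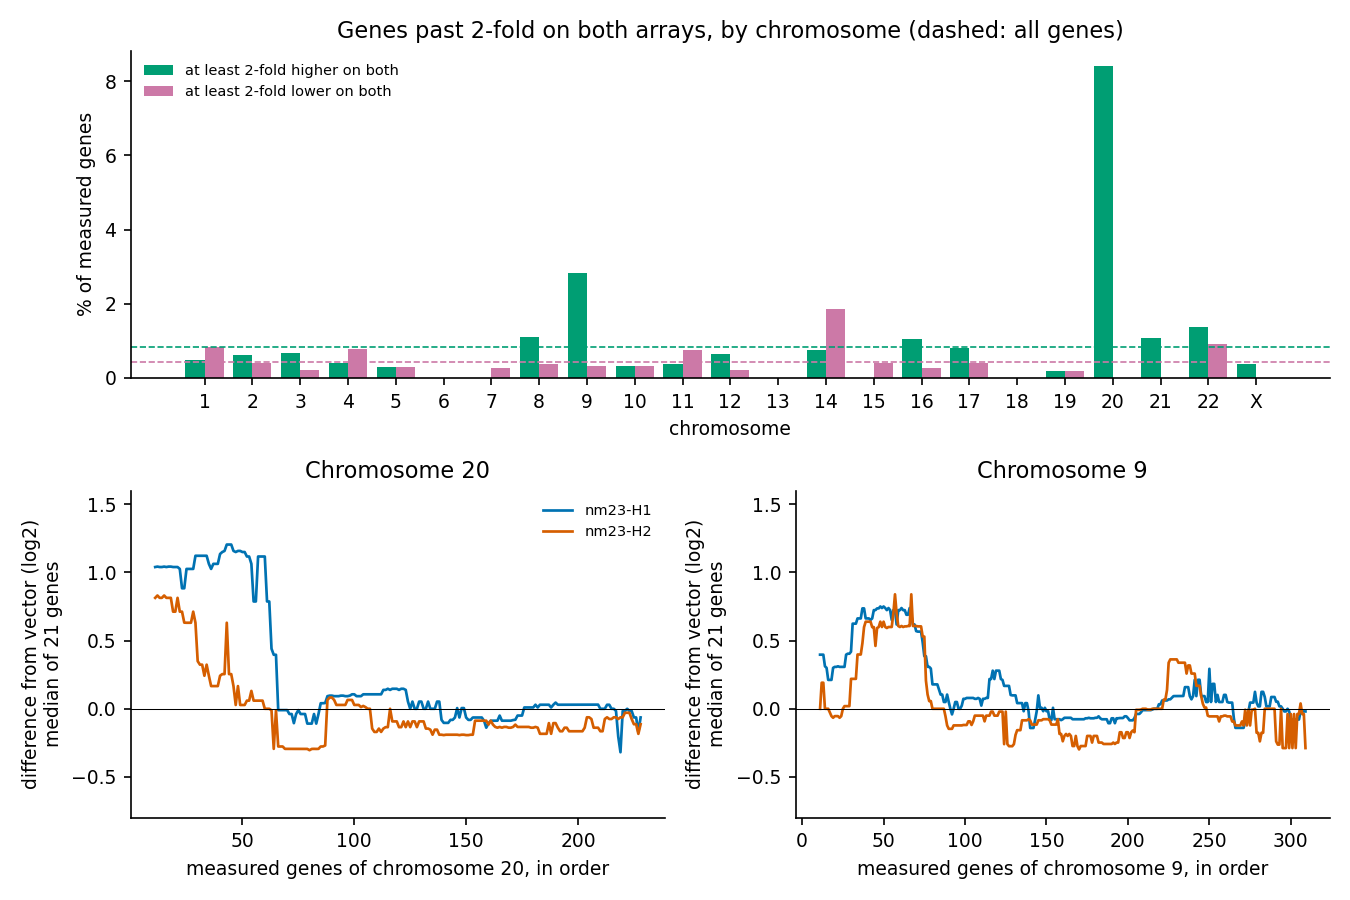
Upper panel: percentage of the measured genes of each chromosome past 2-fold on both arrays, in either direction, with the values over all genes (0.825% and 0.425%) dashed; chromosome 20 reaches 8.40%. Lower panels: running median over 21 genes of the log2 difference from vector along chromosomes 20 and 9, 1 line per transfectant, both raised over the first part of chromosome 20 and over a stretch of chromosome 9.

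Genes of the cornified envelope lay below vector on both arrays for most measured members, and none lay above it on both. Of 19 measured genes of the cornified envelope and late epidermal differentiation, 12 (63.2%) were below vector on both, beside 33.8% of all genes. The median difference of the list was -0.52 with nm23-H1 and -0.33 with nm23-H2. With the signals as deposited 7 of 20 (35%) were below on both, beside 17.4% of all genes, and the nm23-H2 median was 0.003. SPRR3, a small proline-rich protein of the envelope, gave 11.9 units with nm23-H1, 137 with nm23-H2 and 284 with vector, at least 10.0-fold and 2.07-fold lower. Its shared difference was under 2-fold as deposited (-0.72), with a common median (-0.90) and with 16 added (-0.97). SPRR1A gave 215, 1884 and 2707 units (12.6-fold and 1.44-fold lower), while its further probe set showed no shared difference. PPL, periplakin, gave 649, 654 and 932 units (1.44-fold and 1.43-fold lower). The size of the decrease thus differed widely between the transfectants for the SPRR genes and hardly for PPL.

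Of 12 measured keratins of squamous epithelium none was above vector on both arrays and 6 (50%) were below, beside 33.8% of all genes. KRT1 and KRT10, the keratin pair of suprabasal cells, were 1.47-fold and 2.88-fold lower (197, 100 and 288 units) and 1.49-fold and 2.14-fold lower (186, 129 and 277 units). KRT9 gave 16.8, 27.1 and 49.6 units, at least 1.75-fold lower with both. KRT13 and KRT4, keratins of mucosal epithelium, lay above vector with nm23-H1 and below it with nm23-H2, and KRT13 gave 1806 units with nm23-H1, 105 with nm23-H2 and 963 with vector. Among the keratins of simple epithelium all 3 measured genes were below vector on both arrays. KRT8 gave 496, 660 and 1349 units (2.72-fold and 2.04-fold lower), under 2-fold as deposited (-0.70) and with a common median (-0.88), and its partner KRT18 gave 1656, 3032 and 3492 units. PKP1, a desmosomal plaque protein, was 1.64-fold and 1.66-fold lower (445, 439 and 728 units), and its further probe set had a shared difference of -0.32.

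Replication-dependent histone genes, whose transcripts accumulate during DNA synthesis, were below vector on both arrays for 10 of 14 measured members (71.4%, beside 33.8% of all genes) and above for 1. Of the 14, 8 were above the floor on every array. As deposited 7 of 12 were below (58.3%, beside 17.4%). The median difference was -0.16 with nm23-H1 and -0.69 with nm23-H2. H2BC12 gave 747 units with nm23-H1, 492 with nm23-H2 and 1492 with vector (2.00-fold and 3.04-fold lower). H2AC6 gave 68.0, 46.3 and 116 units (1.70-fold and 2.49-fold lower). Members of this family are near-identical in sequence, so that signals may be shared between them. Of 32 measured genes of DNA replication and repair 4 were above and 11 (34.4%) below, and of 35 genes of mitosis and G2/M 5 were above and 12 (34.3%) below, near the 33.8% of all genes. As deposited more members of both lists were above than below (12 against 4, and 12 against 8), as were more of all genes (40.2% against 17.4%).

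Genes of cholesterol synthesis were below vector on both arrays for 8 of 15 measured members (53.3%, beside 33.8% of all genes) and above for 2. Beside SC5D, IDI1, the isomerase that makes dimethylallyl diphosphate, gave 46.0 units with nm23-H1, 49.2 with nm23-H2 and 79.7 with vector, with a shared difference of -0.56 by its further probe set. SREBF2, the transcription factor that controls the pathway, gave 106, 100 and 156 units, with -0.60 by its further probe set. INSIG1, which retains the SREBP complex in the endoplasmic reticulum, gave 93.0, 43.7 and 135 units, but its further probe sets showed no shared difference by their median. With probe sets specific by name, 3 of 9 were above and 4 below on both.

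Of 23 measured genes listed from general knowledge as linked to metastasis and Nm23-H1, 2 were above vector on both arrays and 10 (43.5%) below, beside 33.8% of all genes. Beside VIM, GSN, the actin-severing protein gelsolin, gave 163 units with nm23-H1, 184 with nm23-H2 and 342 with vector (2.10-fold and 1.86-fold lower), and a second probe set never exceeded the floor. SMO, the signal transducer of the hedgehog pathway, gave 72.8, 38.1 and 108 units (1.48-fold and 2.82-fold lower). Of 18 measured matrix metalloproteinases and their inhibitors 3 were above and 9 (50%) below on both. TIMP1, an inhibitor of metalloproteinases, gave 228, 320 and 457 units (2.00-fold and 1.43-fold lower). Actin cytoskeleton genes did not lie on 1 side as a list, with 8 above and 6 below of 29. Of the 29, 4 were at least 1.5-fold lower on both, beside 2.92% of all genes. TPM1, tropomyosin, gave 84.7, 55.1 and 184 units, although its further probe sets had a median shared difference of 0, and PFN1, the actin-binding protein profilin, gave 2188, 1584 and 3908 units.

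Interferon response genes lay above vector on both arrays for most measured members. Of 30 members 16 (53.3%) were above and 4 (13.3%) below, beside 23.3% and 33.8% of all genes, with medians of 0.21 for nm23-H1 and 0.23 for nm23-H2. As deposited 19 (63.3%) were above, beside 40.2% of all genes. IRF7, a transcription factor of the interferon response, gave 92.5 units with nm23-H1, 97.9 with nm23-H2 and 39.6 with vector (2.33-fold and 2.47-fold), but lost the 2-fold difference when the floor was raised to the 70th percentile or 16 was added. MX1, an antiviral GTPase, gave 144, 146 and 82.2 units (1.76-fold and 1.77-fold), and IFI27 gave 246, 772 and 164 units (1.5-fold and 4.70-fold). In IRF7 and MX1 the transfectants gave nearly equal signals, and in IFI27 nm23-H2 was the higher. ISG15, a main ubiquitin-like product of the response, gave 1549, 1200 and 1421 units, on either side of vector.

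Of 21 measured antigen presentation genes 11 (52.4%) were above vector on both arrays and 2 (9.52%) below, beside 23.3% and 33.8% of all genes. TAP1, PSMB8 and PSMB9 belong to the interferon list as well. TAP1, a peptide transporter, gave 168 units with nm23-H1, 159 with nm23-H2 and 106 with vector (1.59-fold and 1.5-fold), and PSMB10, a subunit of the immunoproteasome, gave 218, 271 and 144 units (1.52-fold and 1.89-fold). CD74, the invariant chain of class II molecules, gave 48.9, 99.9 and 16.6 units (at least 1.73-fold and 3.53-fold). Of the 15 measured NF-kB components and targets 7 (46.7%) were above on both and 1 (6.67%) below. NFKBIE, an inhibitor of NF-kB, gave 75.4, 69.5 and 44.2 units, and TNIP1, a partner of the ubiquitin editor TNFAIP3, gave 205, 760 and 129 units.

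No glycolysis gene was below vector on both arrays, and 10 of 21 (47.6%) were above, beside 33.8% and 23.3% of all genes. The median was 0.08 with nm23-H1 and 0.45 with nm23-H2. Of the 21 members 4 were at least 1.5-fold higher on both, beside 3.11% of all genes. SLC2A1, the glucose transporter GLUT1, gave 1702 units with nm23-H1, 1605 with nm23-H2 and 962 with vector (1.77-fold and 1.67-fold), with a shared difference of 0.94 by its further probe set. ALDOC, an aldolase, gave 127, 112 and 66.6 units (1.90-fold and 1.68-fold). ENO2, the neuronal enolase, gave 76.2, 51.1 and 16.7 units, and PDK1, the kinase that inhibits pyruvate dehydrogenase, gave 54.7, 85.0 and 31.1 units. ENO1 and PGAM1, an enolase and a phosphoglycerate mutase, differed by less than 0.2 (log2) from vector on both arrays. Among 21 hypoxia response genes, 9 (42.9%) were above and 6 (28.6%) below. BNIP3, a mitochondrial protein of autophagy, gave 138, 198 and 68.2 units (2.02-fold and 2.90-fold), with 0.69 by its further probe set, and was under 2-fold with 16 added.

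Genes of the endoplasmic reticulum stress response were above vector on both arrays for 14 of 26 measured members (53.8%, beside 23.3% of all genes) and below for 4 (15.4%, beside 33.8%), but with different sizes on the arrays. Their median was 0.14 with nm23-H1 and 0.69 with nm23-H2. HSPA5, the main chaperone of the endoplasmic reticulum, gave 818 units with nm23-H1, 3865 with nm23-H2 and 757 with vector, so that the nm23-H1 array lay close to vector and the nm23-H2 array far above it. CRELD2, a folding factor, gave 668, 671 and 378 units (1.77-fold and 1.78-fold) and was as high with nm23-H1 as with nm23-H2. SEC23B of this list lies in the raised part of chromosome 20, as does TRIB3 of the ATF4 target list, in which 12 of 34 (35.3%) were above on both and 2 (5.88%) below.

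Nucleotide metabolism, the pathway in which nucleoside diphosphate kinases act, had 8 of 34 measured genes above vector on both arrays and 8 below (23.5% each, beside 23.3% and 33.8% of all genes). As deposited the counts were 19 above (55.9%) and 3 below (8.82%), beside 40.2% and 17.4% of all genes. With a common median they were 13 (38.2%) and 5 (14.7%), beside 31.8% and 24.1%. Of the 34, 3 were at least 2-fold higher on both, beside 0.825% of all genes. DTYMK, thymidylate kinase, gave 187 units with nm23-H1, 176 with nm23-H2 and 72.1 with vector (2.59-fold and 2.44-fold). PFAS, an enzyme of purine synthesis, gave 106, 107 and 44.4 units (2.38-fold and 2.41-fold), and ENTPD6 is described above. DTYMK and PFAS lie outside the raised windows, on chromosomes 2 and 17, and neither has a further probe set. PFAS lost its 2-fold difference once the floor was raised to the 70th percentile.

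In several large sets the side depended on the scaling, as it did over all genes. As deposited, 40.2% of all genes were above on both arrays and 17.4% below. Of 44 cytosolic ribosomal protein genes 10 (22.7%) were above on both arrays and 13 (29.5%) below, beside 23.3% and 33.8% of all genes, with none past 1.5-fold on both. As deposited 23 (52.3%) were above and 0 below. With quantile normalization 9 (20.5%) were above and 21 (47.7%) below, beside 24.4% and 33.1% of all genes. Oxidative phosphorylation had 11 above and 12 below of 54, again with none past 1.5-fold on both, and the proteasome 9 above and 11 below of 32. As deposited these were 26 (48.1%) against 6 (11.1%) and 12 (37.5%) against 4 (12.5%). Among 37 genes of the NRF2 and glutathione list 11 were above and 12 below, with GCLM and GSTM3 past 2-fold in opposite directions. As deposited 19 (51.4%) were above and 6 (16.2%) below. The heat shock list likewise held BAG1 above and HSPA2 below at 2-fold, with 12 above and 7 below of 27. In the plasminogen activation list no gene was on the same side on both arrays, against 2 of 7 above as deposited.

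**Figure D4:**
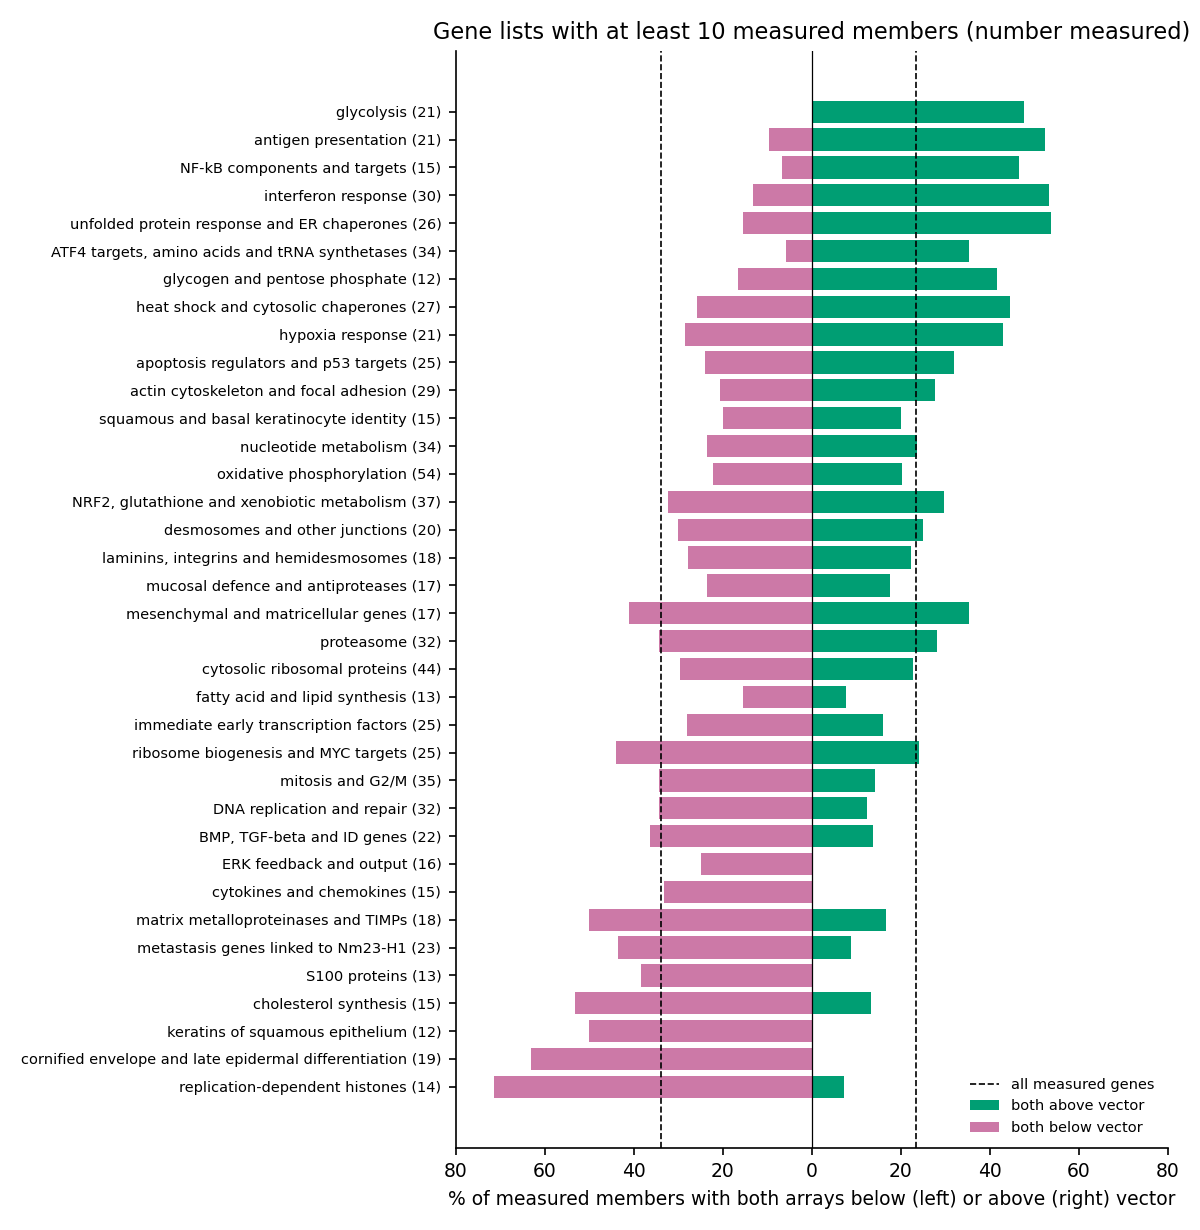
Percentage of the measured members of each gene list above vector on both arrays (right) and below vector on both (left), for lists with at least 10 measured members, the number measured in brackets. Dashed lines mark all 8000 genes, 23.3% above and 33.8% below. Interferon response, antigen presentation and endoplasmic reticulum genes reach furthest to the right, and histones and the cornified envelope furthest to the left.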

How the data were processed

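RNA from 3 transfected CAL 27 lines was measured on 1 Affymetrix array each. The deposited values are linear intensity signals for 22283 probe sets, made by the authors with MAS5 per the submitters' processing notes; the version, scaling target and detection calls are not given in the sources used here. Of the probe sets, 19071 carried a single gene symbol and were used, while the 1043 with several and the 2169 with none were left out, apart from the one shared by NME2 and its read-through.

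Each array was multiplied (1.03 for nm23-H1, 0.881 for nm23-H2, 1.11 for vector) to a common mean between the 2nd and 98th percentiles, values under the pooled median of 28.3 were set to it, and the values were put on the log2 scale. A gene was represented by its brightest probe set on average, with names ending in _x_at used only where no other existed. Differences from vector are on the log2 scale of these floored signals, which understates the change of low genes. With 1 array per group nothing was tested and no p-value computed; the number of arrays limits the precision. The steps were tested on simulated data.

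Named genes were NME1 to NME8, the 15 largest shared increases and 15 largest shared decreases among genes whose brightest array reached the 70th percentile (66.2 units) and for which no second probe set opposed the difference by 0.5 or more, up to 4 members per list with a shared difference of at least 0.5, and up to 3 genes per described chromosome window of 50 genes. Genes named for another reason (next to the threshold, as family or pathway partners, or by position) were chosen after their values were seen. The 45 lists came from general knowledge, and the comparison, its members and the lists were chosen with earlier results of these data known. Matched list members only are counted; the others were not analysed here. Positions and promoters are from RefSeq, assembly GRCh38.p14. Alternatives were 3 other scalings, 2 other floors, a constant of 16 added instead of flooring, averaging over all probe sets per gene, plain _at probe sets alone, the mean of both differences and a 1.5-fold threshold. Leaving out the window genes, and using only genes above the floor on all 3 arrays, were added after seeing the data. Computation used Python 3.11.15 with pandas 2.3.3, numpy 2.4.6 and scipy 1.17.1, and plots matplotlib 3.10.9.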

Additional observations from a re-analysis of the deposited data

Results flagged for a closer look

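The transfectants lay on opposite sides of vector for NME1, by 0.65 with nm23-H1 and -0.42 with nm23-H2 (log2). Of 40 gene lists with at least 5 measured members, 22 had medians on opposite sides of vector. In 3 of them both medians exceeded 0.3 in size, a limit chosen after the values were seen: plasminogen activation (-0.34 and 0.46), laminins, integrins and hemidesmosomes (-0.38 and 0.52), and ERK feedback and output (-0.47 and 0.56). With 1 array each, these differences between the transfectants were not tested. Outside the genes with a single symbol, 1534 probe sets with several symbols or none were measured. Both arrays were past 2-fold above vector for 6 of them (0.391%) and past 2-fold below it for 7 (0.456%). Among the single-symbol probe sets these shares were 0.753% and 0.438%, so the lower share was near the general one and the higher share under it.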

How the results depend on the processing

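No paired analysis was possible because each group has 1 array. The count of genes past 2-fold on both arrays, higher and lower, was 66 and 34, or 66.0% higher. With the signals as deposited it was 109 and 18 (85.8% higher; 147 and 22 probe sets, against 86 and 50), and with a common median 86 and 22 (79.6% higher; 113 and 30 probe sets). With the floor at the 25th percentile it was 212 and 221 (49.0% higher; 354 and 380 probe sets), and at the 70th percentile 34 and 12 (43 and 15 probe sets). Averaging over probe sets gave 50 and 20, plain _at probe sets 35 and 14, and genes above the floor on all 3 arrays 54 and 16 (77.1% higher). The mean of both differences gave 146 and 89 (204 and 128 probe sets), and 1.5-fold 249 and 234 (51.6% higher; 355 and 339 probe sets). The cause of these shifts was not tested, except that fewer genes entered with plain _at probe sets (4917) and with the 70th percentile (5045). Quantile normalization (70 and 34) and 16 added (51 and 29) stayed within 1.5 times, with 65 and 30, and 35 and 19, of the 66 and 34 genes still past 2-fold. No named gene took the opposite sign under these alternatives, but this says little. The shared difference becomes 0 when only 1 transfectant crosses vector, so such a change does not appear as a reversal. With plain _at probe sets 20 of the 26 measured named genes past 2-fold kept their sign. Of the 42 named genes past 2-fold, 39 stayed past it as deposited, 40 with a common median, 42 with quantile normalization, 24 with the floor at the 70th percentile, 34 with 16 added, 33 with the mean of probe sets and 17 of the 26 measured with plain _at probe sets. PYGB, ENTPD6, THBD, CALB1, LTBP2, GCLM, ALDH2, TRIB3, STOML2, PLAC8, GSTM3 and HSPA2 stayed past 2-fold in all of these that measured them; plain _at probe sets did not measure PYGB, CALB1, STOML2, GSTM3 and HSPA2. With those probe sets SEC23B, SPARC, TPM1, CASKIN2, SC5D and SRSF11 had a shared difference of 0. Genes near the floor are limited by signal over background.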
